A study of Mus musculus with 6 samples.

Results

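The DEAD box and DEAH box proteins are RNA helicases, enzymes that use ATP to unwind or remodel RNA and RNA-protein complexes. Their messages were followed here in an RNA immunoprecipitation (RIP) experiment with CPEB4, in which an antibody pulls down a protein with the RNA bound to it. Members were chosen by gene symbol, as every row of the count table whose symbol starts with Ddx or Dhx and a number, with pseudogenes left out. This took 54 of 55376 rows, which are 37 Ddx genes, 16 Dhx genes and Dhx58os, an antisense RNA of the Dhx58 locus that codes for no helicase. The rule reads no measured value, but the family was proposed with earlier results of these comparisons known, so its counts below are a description of the family and not an independent test of it.

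All 6 libraries were prepared by SMART-seq2, a full-length cDNA method, from FACS-sorted muscle stem cells of C57BL/6 mice aged 3 months. They formed 3 groups of 2 libraries, namely CPEB4 RIP, RIP with IgG (a control antibody with no stated target) and input RNA, and no genotype or treatment is stated beyond these. The labels do not name the animals or preparations behind each library, and the p-values therefore reflect only how these libraries spread, which may be partly technical. Total counts were 12679621 and 20843042 for the CPEB4 RIP libraries, 9018323 and 14225502 for the IgG RIP libraries, and 16314360 and 12426827 for the input libraries.

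A helicase of the DEAD box family typically opens short duplexes or clamps RNA locally, while many DEAH box proteins translocate along RNA and drive the large rearrangements of the spliceosome. Much of both families works in the nucleus, in ribosome assembly in the nucleolus and in splicing, and a smaller part works in the cytoplasm on translation, message storage and decay, or as sensors of foreign RNA. CPEB4 belongs to the CPEB family, which binds the cytoplasmic polyadenylation element in the 3′ untranslated region of messages and regulates their translation. In CPEB complexes of frog oocytes the DDX6 orthologue is a component, which is a property of the protein and not of its message. All values below concern the helicases' messages.

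The IgG RIP libraries were the least alike of the replicate pairs, with a Pearson correlation of log2 CPM (counts scaled to a common library total) across genes of 0.873, against 0.981 between the CPEB4 RIP libraries and 0.974 between the input libraries. Each IgG RIP library correlated less with its own replicate than with any CPEB4 RIP or input library. Those correlations were 0.891 to 0.939 for IgG RIP replicate 1 and 0.895 to 0.902 for IgG RIP replicate 2. All 12 muscle stem cell markers were detected in every library. Their summed CPM were 63180 and 69120 for CPEB4 RIP, 62860 and 61520 for IgG RIP, and 46950 and 48200 for input. Most of each sum was Sdc4, with 57283 CPM in CPEB4 RIP replicate 1 and 41437 CPM in input replicate 1. Vcam1, Chodl and Calcr were lower in both CPEB4 RIP libraries than in both input libraries, and the other listed markers were higher. Of 5 erythroid markers, 3 were higher in CPEB4 RIP than in IgG RIP, with sums of 655 and 326 CPM in CPEB4 RIP, 86.5 and 146 CPM in IgG RIP and 108 and 178 CPM in input. Leukocyte, endothelial, fibro-adipogenic, pericyte and germ cell lists had no member past that test, while 1 of 5 myofibre markers was higher, as was 1 of the 12 muscle stem cell markers, of which another was lower. Only 4 of 6 leukocyte and 1 of 5 germ cell markers had enough counts to be tested. The part of other cells in the helicase results was not tested, and in bulk libraries fewer cells of a type and less RNA per cell cannot be told apart.

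Of the 54 rows, 50 passed the filter on low counts and all 50 were helicases. Ddx4, the germ cell helicase VASA, had 2 and 6 counts in the CPEB4 RIP libraries, 1 and 2 in the IgG RIP libraries, and 1 and 3 in the input libraries. Ddx25, known from the testis, had 2 and 0 counts in the CPEB4 RIP libraries, 0 and 0 in the IgG RIP libraries, and 12 and 12 in the input libraries. Ddx43 had 1 and 2 counts in the CPEB4 RIP libraries, 4 and 8 in the IgG RIP libraries, and 2 and 10 in the input libraries. Dhx58os had 8 and 8 counts in the CPEB4 RIP libraries, 2 and 0 in the IgG RIP libraries, and 6 and 10 in the input libraries. These 4 were not tested, and no library held more than 12 counts of any of them.

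The levels spanned a wide range, and the Ddx genes held nearly all of the high ones. In FPKM, which counts fragments relative to gene length and library total and so allows levels of different genes to be set side by side, 16 of the 53 helicase genes averaged over 10 across the 6 libraries, 26 averaged 1 to 10 and 11 averaged under 1. Of the 16, 15 were Ddx genes and the other was Dhx15, the homologue of the yeast splicing helicase Prp43. The median over genes of this mean was 7.92 FPKM for Ddx genes and 1.85 FPKM for Dhx genes. Ddx5 led with a mean of 279 FPKM, followed by Ddx3y with 105, Ddx3x with 69.8, Ddx21 with 38.0 and Ddx39b with 33.2 FPKM. In every library Ddx5 stood above every other helicase.

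**Figure D1:**
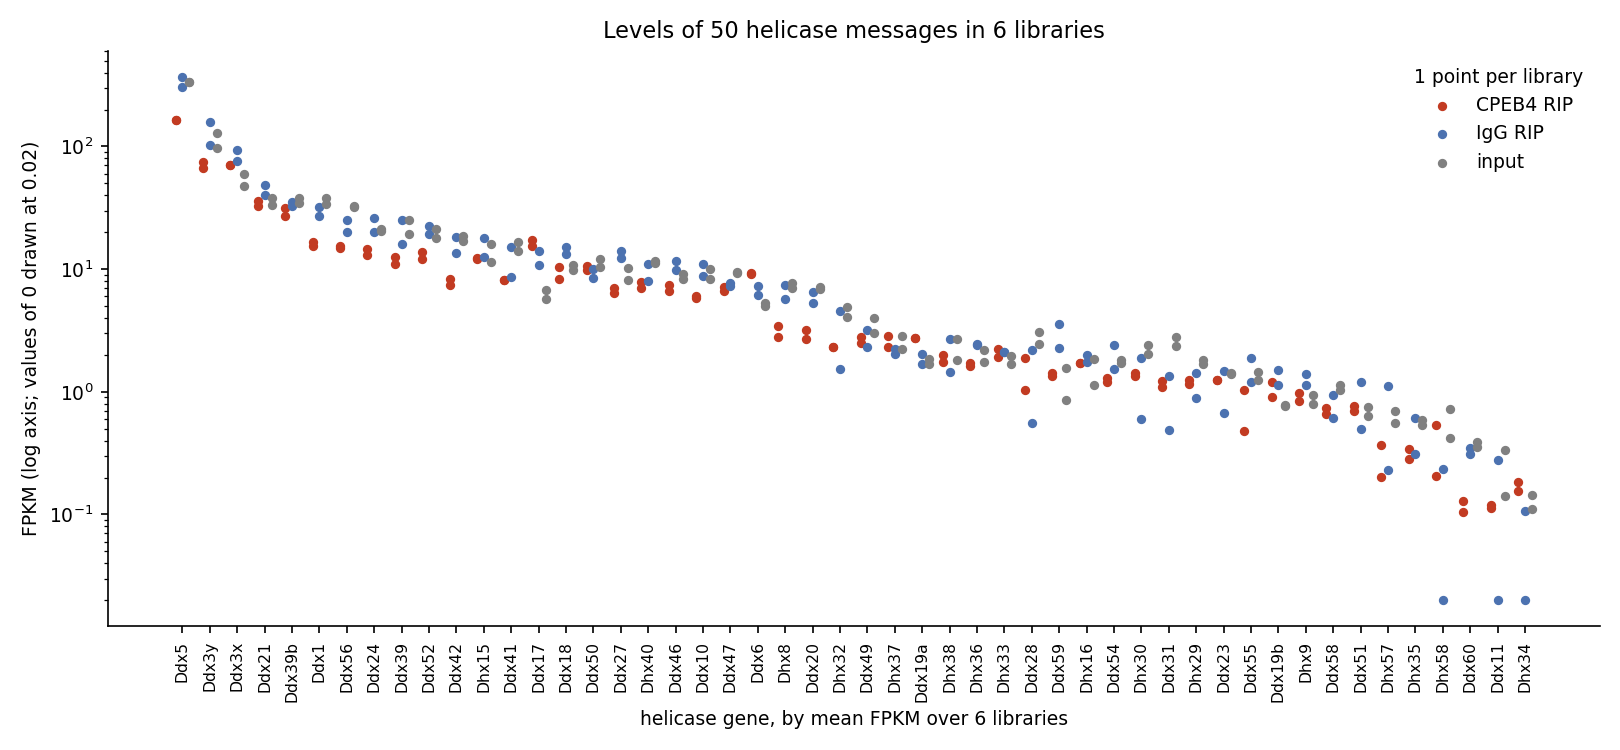
Level of each of the 50 tested helicase messages in FPKM on a log axis, 1 point per library, with CPEB4 RIP left of IgG RIP and input within each gene; genes are ordered by their mean over the 6 libraries. Ddx5 leads at a mean of 279 FPKM, and Ddx17 and Ddx6 are the 2 genes called higher in CPEB4 RIP than in input.

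Helicase messages took a smaller share of the CPEB4 RIP libraries. Summed over the 54 rows, with Dhx58os kept in every share given here, they made up 0.413% ± 0.00674 of all counts in CPEB4 RIP. The share was 0.729% ± 0.0301 of counts in IgG RIP and 0.713% ± 0.00488 of counts in input (SD, n = 2 each). Both CPEB4 RIP libraries lay below all 4 others. Ddx5 alone accounted for 30.3% and 29.4% of helicase counts in CPEB4 RIP, 39.2% and 38.1% of them in IgG RIP, and 42.8% and 39.2% of them in input. Without Ddx5 the share was 0.290% ± 0.00748 in CPEB4 RIP, 0.447% ± 0.0244 with IgG and 0.421% ± 0.0208 in input, and the order of CPEB4 RIP below both held. With 2 libraries against 2, the smallest two-sided p of an exact permutation test is 0.333, so no p is given for a share.

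Over IgG RIP, no helicase message was higher in CPEB4 RIP and 10 of 50 were lower, by edgeR's quasi-likelihood test with Benjamini-Hochberg adjustment over the 18054 genes tested and a threshold of 0.05. Of all genes tested, 4.79% were called higher and 3.42% lower. Helicase messages were also better covered than the average gene: 36 of the 50, all 10 called ones among them, averaged at least 10 CPM, and of all 7400 genes at that level 7.00% were called lower. The median log2 fold change of the 50 was −0.45, against −0.066 for all genes tested. In the 36 better covered messages it was −0.53, against 0.017 over the 7400 genes. Both CPEB4 RIP libraries lay below both IgG RIP libraries for 30 of the 50 and above both for 4, against 25.5% and 29.4% of all genes.

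Over input, 2 helicase messages were higher in CPEB4 RIP (Ddx17 and Ddx6) and 7 were lower, where 8.00% of all genes were called higher and 4.70% lower. At 10 CPM or more, 9.97% of genes were called lower, and all 7 lower helicases were among the 36 at that level. The median log2 fold change was −0.52 for the 50 helicases and −0.056 for all genes. Both CPEB4 RIP libraries lay below both input libraries for 32 of the 50 and above both for 6, against 37.6% and 34.4% of all genes. Ddx1, Ddx5, Ddx20, Ddx42 and Dhx8 were lower in both comparisons, which share the CPEB4 RIP libraries.

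Between IgG RIP and input, 0 helicase messages passed, and the percentage of all genes called was 0. At an unadjusted p under 0.05 there were 11 helicases and 2550 genes, and DESeq2's Wald test called Ddx17 and Ddx3x higher in IgG RIP among 706 genes called. The median log2 fold change of IgG RIP over input was −0.024 for the 50 helicases and 0.054 for all genes.

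**Figure D2:**
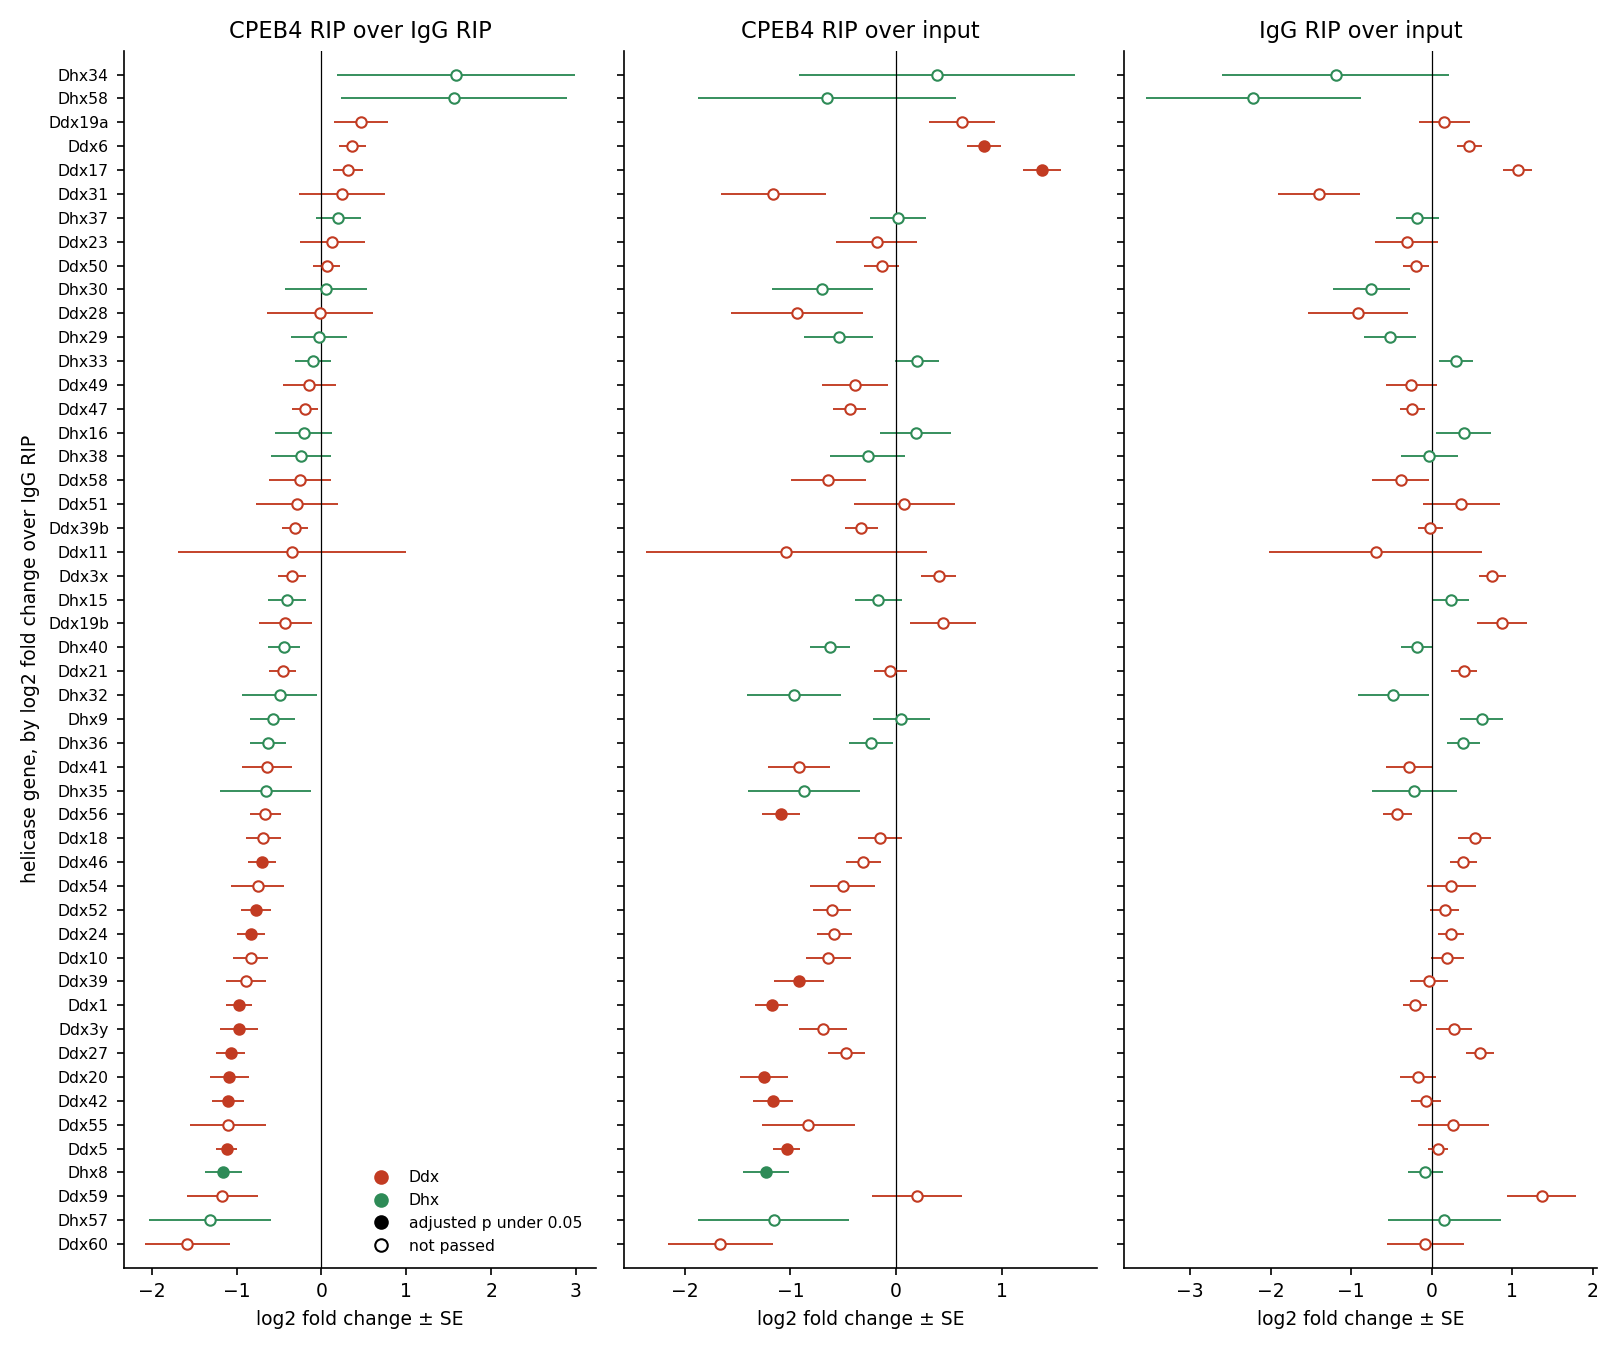
Log2 fold change ± SE of the 50 tested helicase messages in CPEB4 RIP over IgG RIP, CPEB4 RIP over input and IgG RIP over input, 1 row per gene ordered by the first panel; red marks Ddx and green Dhx, and filled points passed the test at an adjusted p under 0.05. In the first panel 10 filled points lie left of 0 and none right; in the second 7 lie left and 2 (Ddx17 and Ddx6) right; the third has none.

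These calls rest on 2 libraries a group. Without either CPEB4 RIP library none of the 10 lower calls over IgG RIP passed, and the whole table then had 204 calls without replicate 1 and 0 without replicate 2. The input libraries enter this comparison through the shared scaling and estimate of spread. Without either of them fewer of the 10 passed, and fewer genes of the whole table did. The log2 fold changes over IgG RIP were then −0.84 and −0.83 for Ddx1 (without input replicate 1 and 2), and −0.99 and −0.97 for Ddx5. They were −0.94 and −0.93 for Ddx27, and −0.96 and −0.95 for Ddx42. Leaving out an IgG RIP library raised the count instead. Without IgG RIP replicate 1, 18 helicases were lower, all 10 among them, and 4 were higher (Ddx31, Dhx30, Dhx34 and Dhx58), with 13.4% of all genes lower and 23.6% higher. Without IgG RIP replicate 2, 14 were lower, 9 of the 10 among them, and 5 were higher (Ddx6, Ddx11, Ddx17, Ddx23 and Ddx28), with 16.5% of all genes lower and 18.5% higher. The 2 sets of higher helicases had no member in common. Over input, Ddx17 alone of the 9 calls passed without CPEB4 RIP replicate 1, and none did without CPEB4 RIP replicate 2 (adjusted p = 0.0649 for Ddx17). Fewer genes of the whole table passed in both of those fits. Without either input library fewer of the 9 passed, and again fewer genes of the whole table did. The log2 fold changes over input were then 1.27 and 1.54 for Ddx17 (without input replicate 1 and 2), −1.26 and −1.06 for Ddx1, and −1.03 and −1.01 for Ddx5. Without an IgG RIP library more helicases passed over input, and so did more genes of the whole table. In those fits 20.2% of all genes were higher and 18.1% lower without replicate 1, and 19.7% were higher and 17.9% lower without replicate 2.

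Among nuclear helicases outside the nucleolus and spliceosome, Ddx5 gave the largest part of the family's difference. Ddx5 (p68) is a coregulator of transcription and splicing and is known in muscle as a partner of MyoD. Its message, on chromosome 11 at 106780355 to 106789185 of GRCm38, had 1294 and 1338 CPM in CPEB4 RIP, 2658 and 3056 CPM in IgG RIP, and 2682 and 2716 CPM in input. The CPEB4 RIP libraries held about as much as each other and lay far below the other 4. The log2 fold change was −1.12 ± 0.13 (SE) over IgG RIP (adjusted p = 0.00787) and −1.04 ± 0.13 over input (adjusted p = 0.00377).

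Ddx17 (p72), the closest relative of Ddx5 and its partner in many complexes, did not follow it. It had 181 and 166 CPM in CPEB4 RIP, 124 and 155 CPM in IgG RIP, and 60.5 and 72.9 CPM in input. The message was higher in CPEB4 RIP than in input by 1.38 ± 0.18 on the log2 scale (adjusted p = 0.00486). Over IgG RIP the log2 fold change was 0.31 ± 0.18 (adjusted p = 0.305), and that of IgG RIP over input was 1.07 ± 0.18 (adjusted p = 0.165). Both kinds of pull-down thus lay above input in every library, and the difference between the 2 kinds of pull-down did not pass the test.

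The pair Ddx39 and Ddx39b encode close relatives (URH49 and UAP56) that load onto messages for export. Ddx39, listed by RefSeq as Ddx39a, had 77.3 and 91.4 CPM in CPEB4 RIP, 125 and 186 CPM in IgG RIP, and 138 and 182 CPM in input. It was lower in CPEB4 RIP than in input (log2 fold change −0.92 ± 0.24, adjusted p = 0.0437) and narrowly missed the threshold against IgG RIP (−0.88 ± 0.24, adjusted p = 0.0625). For Ddx39b the levels were 139.7 and 166 CPM in CPEB4 RIP, 186 and 193 CPM in IgG RIP, and 181 and 203 CPM in input. Its log2 fold changes of −0.31 ± 0.16 over IgG RIP (adjusted p = 0.245) and −0.33 ± 0.16 over input (adjusted p = 0.216) did not pass.

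Of 9 helicases of the spliceosome, 3 were lower over IgG RIP and 2 over input, with median log2 fold changes of −0.64 and −0.31. Dhx8 is the homologue of yeast Prp22, which releases the spliced message. It had 19.1 and 24.3 CPM in CPEB4 RIP, 43.4 and 53.3 CPM in IgG RIP, and 48.4 and 54.0 CPM in input, the only DEAH box message called in either comparison with CPEB4 RIP. Its log2 fold change was −1.16 ± 0.22 over IgG RIP (adjusted p = 0.0235) and −1.24 ± 0.22 over input (adjusted p = 0.0124).

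Ddx42, which associates with the U2 snRNP, behaved much like Dhx8, with 43.1 and 49.3 CPM in CPEB4 RIP, 86.6 and 111 CPM in IgG RIP, and 97.9 and 109 CPM in input. The log2 fold change was −1.10 ± 0.19 over IgG RIP (adjusted p = 0.0187) and −1.17 ± 0.19 over input (adjusted p = 0.00934). Ddx46, the homologue of yeast Prp5 that acts when U2 joins the branch site, had 66.5 and 75.9 CPM in CPEB4 RIP, 109 and 122 CPM in IgG RIP, and 83.2 and 93.7 CPM in input. It was lower than IgG RIP by the test (−0.70 ± 0.17, adjusted p = 0.0453), while its difference from input was −0.31 ± 0.17 (adjusted p = 0.269). The other 6 of the group passed neither test.

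The nucleolar helicases, which act in ribosome assembly, were the largest group. Of 16, 3 were lower over IgG RIP and 1 over input, and the group's median log2 fold changes were −0.56 and −0.45. Ddx27, needed for processing of ribosomal RNA, had 46.0 and 42.8 CPM in CPEB4 RIP, 90.1 and 96.4 CPM in IgG RIP, and 67.4 and 55.5 CPM in input. Here the IgG RIP libraries stood highest. The log2 fold change was −1.07 ± 0.18 over IgG RIP (adjusted p = 0.0164) and −0.47 ± 0.17 over input (adjusted p = 0.13).

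Ddx24 had 147 and 168 CPM in CPEB4 RIP, 249 and 310.4 CPM in IgG RIP, and 239 and 234 CPM in input, and Ddx52, the homologue of a yeast helicase of the small ribosomal subunit, had 55.3 and 64.3 CPM in CPEB4 RIP, 96.8 and 107 CPM in IgG RIP, and 82.9 and 99.5 CPM in input. Over IgG RIP both passed, with log2 fold changes of −0.83 ± 0.16 for Ddx24 (adjusted p = 0.0266) and −0.77 ± 0.18 for Ddx52 (adjusted p = 0.0419). Over input neither did, at −0.58 ± 0.16 for Ddx24 (adjusted p = 0.0574) and −0.61 ± 0.18 for Ddx52 (adjusted p = 0.0656). In both genes the 2 CPEB4 RIP libraries lay below the other 4.

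Ddx56, a helicase of large ribosomal subunit assembly, showed the reverse pattern of calls. It had 53.6 and 52.9 CPM in CPEB4 RIP, 95.4 and 73.1 CPM in IgG RIP, and 111 and 115 CPM in input. The log2 fold change was −1.09 ± 0.18 over input (adjusted p = 0.0101) and −0.66 ± 0.18 over IgG RIP (adjusted p = 0.0661). The widest difference of a nucleolar message over IgG RIP, −1.10 ± 0.45 for Ddx55, did not pass (adjusted p = 0.165), with 3.47 and 7.64 CPM in CPEB4 RIP, 9.56 and 14.4 CPM in IgG RIP, and 10.7 and 9.26 CPM in input.

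Ddx21 and Ddx50 are neighbouring genes on chromosome 10 (62580247 to 62602298 and 62615792 to 62658764, GRCm38) that encode related nucleolar helicases. Ddx21, which acts in transcription and processing of ribosomal RNA, had 231 and 259.6 CPM in CPEB4 RIP, 315 and 358 CPM in IgG RIP, and 236 and 274 CPM in input. Ddx50 had 136 and 152 CPM in CPEB4 RIP, 131 and 146 CPM in IgG RIP, and 144 and 173 CPM in input, so its groups overlapped. Over IgG RIP the log2 fold changes were −0.46 ± 0.16 for Ddx21 (adjusted p = 0.114) and 0.060 ± 0.16 for Ddx50 (adjusted p = 0.845), and neither passed over input, with adjusted p = 0.848 for Ddx21 and 0.622 for Ddx50.

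Among helicases that work both in the nucleus and in the cytoplasm, 2 of 5 were lower in each comparison, and they were the same 2. Ddx1, a subunit of the tRNA ligase complex, had 107 and 118 CPM in CPEB4 RIP, 208 and 232 CPM in IgG RIP, and 237 and 271 CPM in input. Its log2 fold change was −0.97 ± 0.16 over IgG RIP (adjusted p = 0.0152) and −1.18 ± 0.16 over input (adjusted p = 0.00485). Ddx20 (Gemin3), a subunit of the SMN complex that assembles spliceosomal snRNPs, had 15.2 and 18.6 CPM in CPEB4 RIP, 40.7 and 31.2 CPM in IgG RIP, and 40.6 and 40.1 CPM in input. The log2 fold changes were −1.09 ± 0.23 over IgG RIP (adjusted p = 0.0324) and −1.25 ± 0.23 over input (adjusted p = 0.0136).

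Ddx19a and Ddx19b lie side by side on chromosome 8 (110974991 to 110997823 and 111003186 to 111031751, GRCm38) and encode near-identical export helicases of the nuclear pore. Ddx19a had 11.0 and 11.3 CPM in CPEB4 RIP, 9.03 and 7.15 CPM in IgG RIP, and 7.53 and 6.92 CPM in input. Ddx19b had 11.1 and 8.64 CPM in CPEB4 RIP, 11.7 and 14.7 CPM in IgG RIP, and 7.20 and 7.23 CPM in input. Neither passed a test, with log2 fold changes over IgG RIP of 0.46 ± 0.32 for Ddx19a (adjusted p = 0.382) and −0.42 ± 0.31 for Ddx19b (adjusted p = 0.416). Reads that match both genes could have been split between them, and the sources used here do not say how such reads were counted.

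The cytoplasmic helicases of translation and decay included 1 of the 2 messages called higher over input. Ddx6 encodes the P-body helicase that represses translation and promotes decapping. It had 102 and 102 CPM in CPEB4 RIP, 74.8 and 83.9 CPM in IgG RIP, and 55.1 and 59.5 CPM in input. All 6 libraries kept the order CPEB4 RIP, then IgG RIP, then input from high to low. Over input the log2 fold change was 0.83 ± 0.16 (adjusted p = 0.0161), over IgG RIP it was 0.36 ± 0.16 (adjusted p = 0.193), and that of IgG RIP over input was 0.47 (adjusted p = 0.264). The call over input was lost without either CPEB4 RIP library (adjusted p = 0.0896 without replicate 1 and 0.196 without replicate 2) and without either input library (0.0909 and 0.0655).

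Ddx3x and Ddx3y are the X-linked and Y-linked copies of a helicase that aids translation of messages with structured leaders. Ddx3x had 508 and 527 CPM in CPEB4 RIP, 608 and 712 CPM in IgG RIP, and 346 and 437 CPM in input. It did not pass over IgG RIP (log2 fold change −0.35 ± 0.16, adjusted p = 0.217) or over input (0.40 ± 0.16, adjusted p = 0.158). Ddx3y had 471 and 544 CPM in CPEB4 RIP, 801 and 1189 CPM in IgG RIP, and 701 and 938 CPM in input, and was lower over IgG RIP (−0.97 ± 0.23, adjusted p = 0.0424) but not past the threshold over input (−0.69 ± 0.23, adjusted p = 0.0903). As close copies the 2 genes may also share reads.

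Dhx34, a helicase of nonsense-mediated decay, had the widest difference over IgG RIP in the same group but very few counts, with 14 and 19 counts in CPEB4 RIP, 7 and 0 counts in IgG RIP, and 13 and 12 counts in input. Its log2 fold change of 1.58 ± 1.41 did not pass (adjusted p = 0.503). Over the 5 tested members of the group the median log2 fold change was −0.026 over IgG RIP and 0.39 over input, with 1 lower call over IgG RIP (Ddx3y) and 1 higher call over input (Ddx6).

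None of the 3 RNA-sensing helicases passed a test. Ddx60, an antiviral factor, had the lowest log2 fold change of all 50 over IgG RIP, −1.58 ± 0.50 (adjusted p = 0.0927), with 1.24 and 1.57 CPM in CPEB4 RIP, 4.57 and 3.91 CPM in IgG RIP, and 4.23 and 4.74 CPM in input. Its CPEB4 RIP libraries lay below the other 4, at 15 and 30 counts. The 2 mitochondrial helicases, Dhx30 and Ddx28, passed no test either. Dhx30, which binds the mitochondrial ribosome, had 19.3 and 21.2 CPM in CPEB4 RIP, 30.4 and 9.10 CPM in IgG RIP, and 35.3 and 30.5 CPM in input, so the 2 IgG RIP libraries lay on either side of CPEB4 RIP. Its log2 fold change over IgG RIP was 1.34 without IgG RIP replicate 1 and −0.44 without replicate 2.

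A similar split appeared in Dhx57, the widest of the 4 tested helicases to which no compartment was assigned. It had 3.05 and 1.73 CPM in CPEB4 RIP, 2.12 and 9.63 CPM in IgG RIP, and 5.85 and 4.74 CPM in input. Its log2 fold change over IgG RIP was −1.32 ± 0.72 (adjusted p = 0.284). Without IgG RIP replicate 1 it was −1.86, a lower call (adjusted p = 0.00018), and without replicate 2 it was 0.27 (adjusted p = 0.721).

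**Figure D3:**
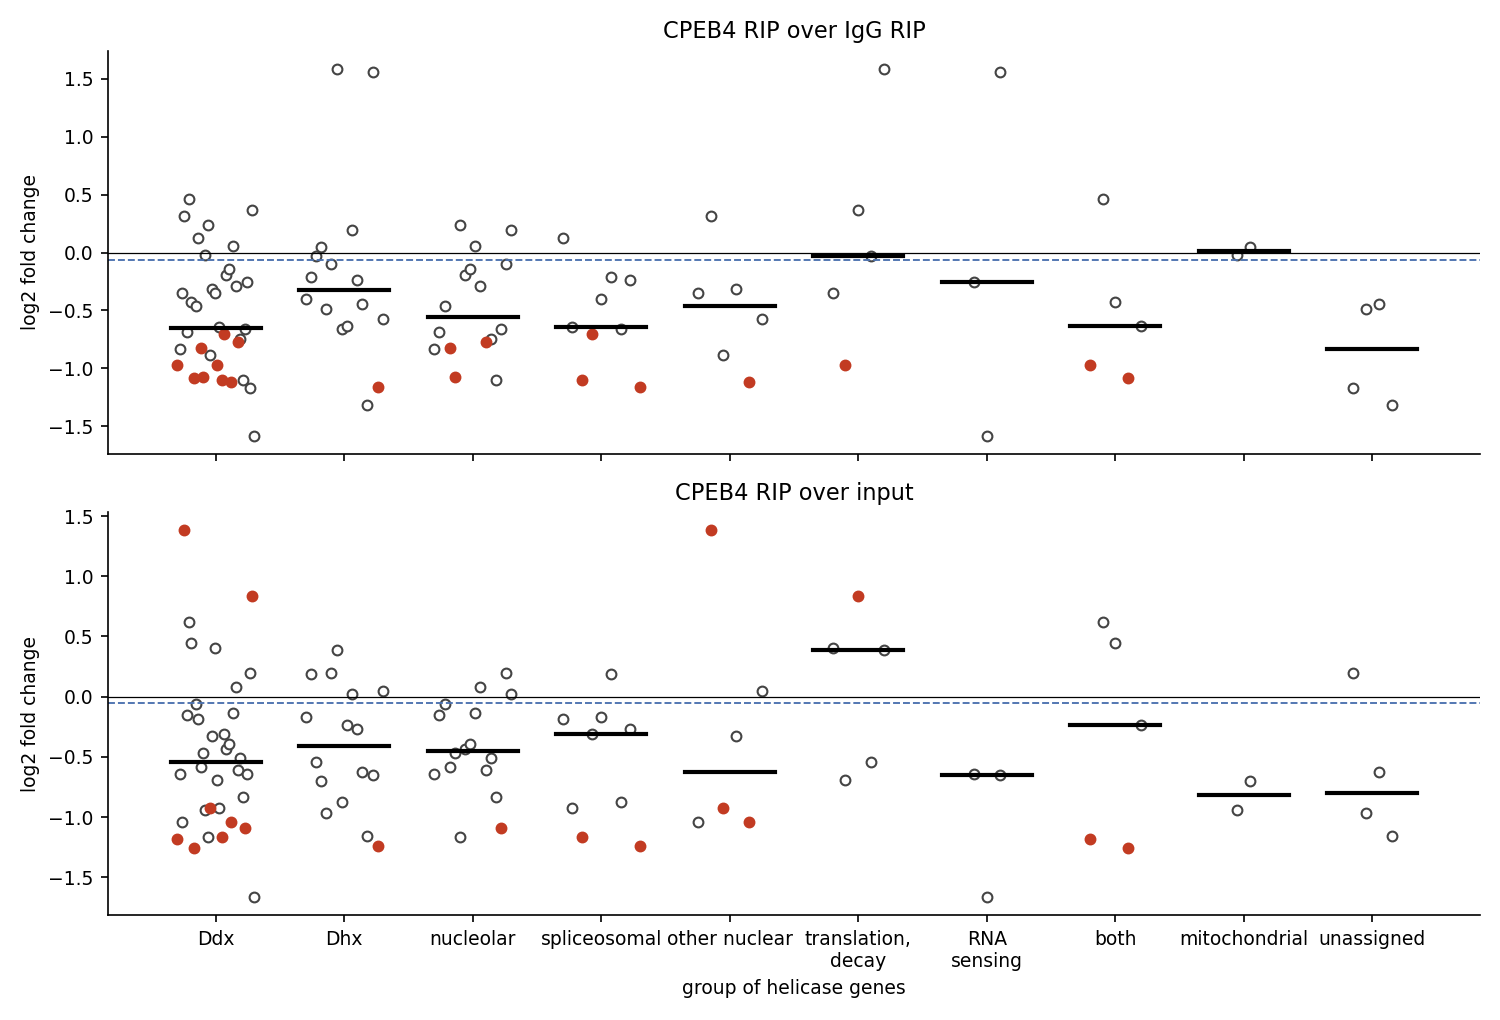
Log2 fold change of each tested helicase message by gene family (Ddx, Dhx) and by role, in CPEB4 RIP over IgG RIP (top) and over input (bottom); each point is a gene, filled where it passed the test, the thick line is the group's median and the dashed line the median of all genes tested. Over IgG RIP the medians are −0.65 for Ddx, −0.32 for Dhx, −0.56 for nucleolar and −0.026 for translation and decay helicases.

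Both families leaned lower in CPEB4 RIP by their medians, and their levels differed. Over IgG RIP, 9 of 34 Ddx and 1 of 16 Dhx messages were lower, with median log2 fold changes of −0.65 for Ddx and −0.32 for Dhx. Over input, 2 Ddx messages were higher and 6 lower, against 0 higher and 1 lower Dhx message, with medians of −0.55 for Ddx and −0.41 for Dhx. The median input level of the tested genes was 57.3 CPM for Ddx and 16.6 CPM for Dhx. Among genes of at least 10 CPM in input, 26 Ddx messages had medians of −0.67 over IgG RIP and −0.55 over input, and 11 Dhx messages had −0.40 and −0.27. The difference of medians, Ddx minus Dhx, was −0.33 over IgG RIP and ranged from −0.44 to −0.12 with 1 library left out. Over input it was −0.14 and ranged from −0.43 to 0.036. The difference between the families was not tested.

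The difference between nuclear and cytoplasmic helicases had opposite signs in the 2 comparisons. Over IgG RIP, 7 of 31 nuclear messages and 1 of 8 cytoplasmic messages were lower, with medians of −0.57 for nuclear and −0.14 for cytoplasmic helicases. Over input, 1 nuclear message was higher and 5 lower, while 1 cytoplasmic message was higher and none lower, with medians of −0.44 for nuclear and −0.59 for cytoplasmic helicases. The difference of medians, nuclear minus cytoplasmic, was −0.43 over IgG RIP, with a range of −0.82 to −0.09 when 1 library was left out. Over input it was 0.15, with a range of −0.18 to 0.19 that crosses 0. In IgG RIP over input it was 0.32. Of the 8 cytoplasmic messages tested, Ddx3x, Ddx3y and Ddx6 were the abundant ones, and the others were Dhx29, Dhx34, Ddx58, Ddx60 and Dhx58. The 8 pool 2 roles whose medians over input had opposite signs. These were 0.39 for 5 translation and decay messages and −0.65 for 3 RNA-sensing messages. Over IgG RIP the medians were −0.026 and −0.25.

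Ratios of related helicases within a library do not depend on how libraries were scaled. The FPKM ratio of Ddx5 to Ddx17 was 9.44 and 10.7 in the CPEB4 RIP libraries, 28.4 and 26.0 in the IgG RIP libraries, and 58.7 and 49.3 in the input libraries. The 3 groups were fully separated, with CPEB4 RIP lowest and input highest. Ddx3x over Ddx3y gave ratios of 1.06 and 0.954 in the CPEB4 RIP libraries, 0.747 and 0.590 in the IgG RIP libraries, and 0.486 and 0.459 in the input libraries, again without overlap but with CPEB4 RIP highest.

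The 3 remaining pairs differed in which groups separated. Ddx39 over Ddx39b was 0.406 and 0.404 in the CPEB4 RIP libraries, 0.494 and 0.708 in the IgG RIP libraries, and 0.558 and 0.658 in the input libraries. Ddx21 over Ddx50 was 3.32 and 3.34 in the CPEB4 RIP libraries, 4.72 and 4.81 in the IgG RIP libraries, and 3.20 and 3.10 in the input libraries, so the groups did not overlap, with IgG RIP highest and input just below CPEB4 RIP. For Ddx19a over Ddx19b the ratio was 2.26 and 2.98 in the CPEB4 RIP libraries, 1.76 and 1.11 in the IgG RIP libraries, and 2.38 and 2.18 in the input libraries, where CPEB4 RIP and input overlapped. With 2 libraries a group none of these ratios can reach an exact two-sided permutation p under 0.333.

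**Figure D4:**
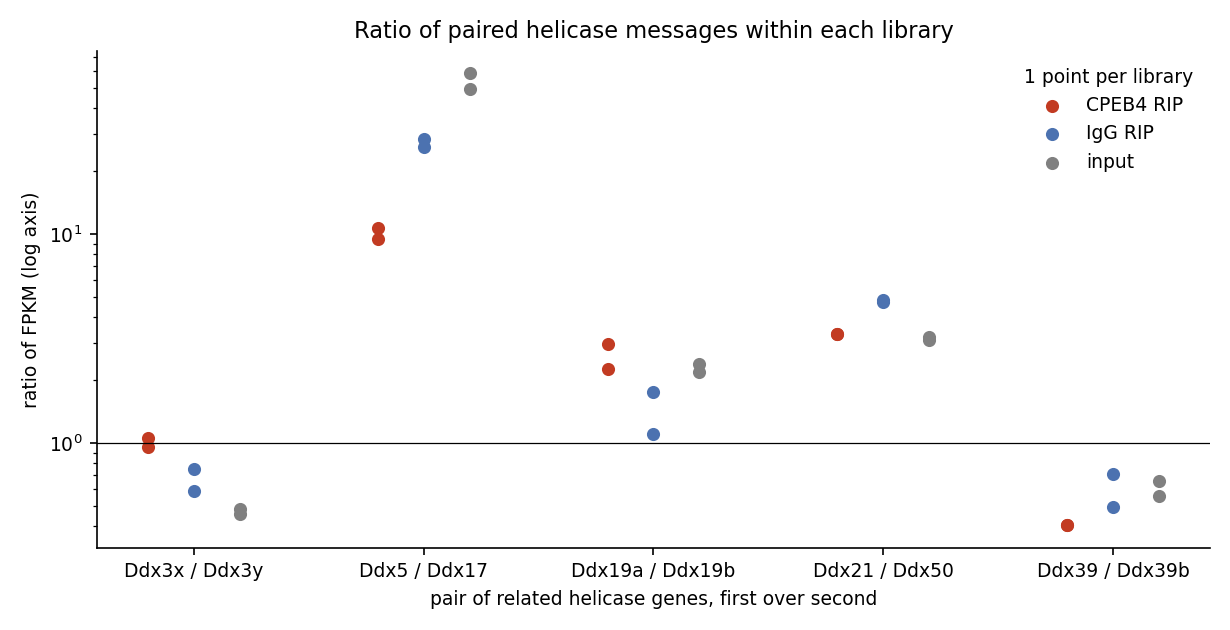
Ratio of FPKM within each library for 5 pairs of related helicase genes, first gene over second, on a log axis; 1 point per library, with CPEB4 RIP left of IgG RIP and input. The ratio of Ddx5 to Ddx17 is 9.44 and 10.7 in CPEB4 RIP and 58.7 and 49.3 in input, and that of Ddx3x to Ddx3y is near 1 only in CPEB4 RIP.

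Messages of other RNA helicases and of proteins that work with helicases were taken from 4 lists. Of all genes tested, 4.79% were called higher and 3.42% lower over IgG RIP, and 8.00% higher and 4.70% lower over input. The lists are small, and none was tested against those shares. Of 19 other RNA helicases tested, 0 were higher and 1 was lower over IgG RIP, with a median log2 fold change of −0.49, and 0 were higher and 2 lower over input, with a median of −0.30. The lower one over IgG RIP was Ascc3, a helicase of DNA repair and ribosome rescue (log2 fold change −0.84, adjusted p = 0.0372). Over input Ascc3 did not pass (−0.46, adjusted p = 0.155). Of 25 cofactors and regulators of helicases, mostly G-patch and MIF4G proteins, 0 were higher and 4 lower over IgG RIP, with a median of −0.54. Among them were the splicing factors Rbm5 (−1.21, adjusted p = 0.00968) and Gpkow (−0.97, adjusted p = 0.0227), and Eif4g1, the scaffold of translation initiation (−0.72, adjusted p = 0.0415). Over input 2 of the 25 were higher and 4 lower, with a median of −0.40. One of the higher ones, named after its value was seen, was Pdcd4, an inhibitor of the helicase eIF4A (1.23, adjusted p = 0.0102). Over IgG RIP Pdcd4 did not pass (0.33, adjusted p = 0.329), and its log2 fold change of IgG RIP over input was 0.89 (adjusted p = 0.201).

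The partners of DDX6 in P-bodies had a median of the other sign over IgG RIP. Of 13 tested, 1 was higher and 0 were lower, with a median log2 fold change of 0.27 over IgG RIP and −0.036 over input. The higher one was Lsm14a, a P-body protein that binds DDX6, at 0.94 over IgG RIP (adjusted p = 0.0403) and 1.73 over input (adjusted p = 0.00418). Of 14 exon junction and export partners, 1 was higher and 2 were lower over IgG RIP, with a median of 0.031, and 2 were higher and 4 lower over input, with a median of 0.41. Over IgG RIP the export factors Thoc1 (−1.34, adjusted p = 0.02) and Nxf1 (−0.89, adjusted p = 0.0176) were lower, and Thoc7, a subunit of the same THO complex as Thoc1, was higher (0.88, adjusted p = 0.0424). Over input Thoc7 did not pass (0.57, adjusted p = 0.113).

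Gene length is a property that the symbols do not use. The 50 tested helicases were long, with a median length 1.40 times that of the median gene detected in every library. Across the 50 helicases Spearman's rho between relative gene length and log2 fold change was 0.056 over IgG RIP and 0.20 over input, against −0.20 and −0.25 across all genes tested. These are descriptions across genes that share libraries. With a length correction fitted on genes of at least 10 CPM, chosen after seeing the data, 7 of the 10 lower calls over IgG RIP passed. In that fit 3.18% of all genes were higher and 2.46% lower. With a length correction fitted on all genes none of the 10 passed, and that correction left 0 calls over IgG RIP in the whole table. The helicases' median log2 fold change over IgG RIP was then −0.43. For Ddx1 the fold over IgG RIP was −1.03 ± 0.28 (adjusted p = 0.119), a similar size with a larger error than the −0.97 ± 0.16 given above. Over input the same correction left 1 helicase call, Ddx17, where the reported fit had 9, with 2.93% of all genes higher and 0.731% lower. The helicases' median over input was −0.24 with it and −0.52 without it, and that of all genes was 0.11 with it.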

How the data were processed

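RNA from 6 muscle stem cell libraries was aligned to mm10 with HISAT2 and counted with featureCounts, per the submitters' processing notes. The sources used here give no versions, annotation, strand setting or handling of multi-mapping reads. The deposited table holds raw counts per gene. A second deposited table holds FPKM, with no tool or library total stated. Counts without molecular identifiers are not independent molecules, so depth covers counting error only.

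Counts were tested with edgeR 4.0.16 in R 4.3.3. Genes were kept by filterByExpr (minimum count 10, total 15), libraries were scaled by TMM, and group was the term of a quasi-likelihood model over all 6 libraries (3 residual degrees of freedom). Tests were two-sided and adjusted by Benjamini-Hochberg over 18054 genes. CPM use TMM-scaled totals. SE is the absolute log2 fold change over the square root of F. Positions are RefSeq's on GRCm38.p6, matched by symbol for 53 rows. The steps were tested on simulated data.

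The members and all lists (role groups, partners, markers) were chosen with earlier results of these data known. Named genes were those past the test, the 5 highest by FPKM, Ddx6, Ddx3x, the widest fold over IgG RIP in each role group, 5 related pairs, and at most 3 per partner list. Other genes were named after their values were seen. Alternatives were DESeq2 1.42.0, limma 3.58.1 on log2(FPKM + pseudocount), other scalings and filters, length offsets, a replicate block and each library left out. Fold changes on the log2(FPKM + pseudocount) scale understate those of low genes.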

Additional observations from a re-analysis of the deposited data

How the results depend on the processing

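The number of helicase messages past the test over IgG RIP, 10 in the reported fit, was 0 with the length offset over all genes, 5 with limma on log2(FPKM + 1), 1 with the same values unfiltered, 0 with log2(FPKM + 0.1), and 0 to 22 with 1 library left out. Whole-table shares over IgG RIP were 4.79% higher and 3.42% lower in the reported fit, with 0 calls under the length offset over all genes. These shares were 6.96% and 1.92% with log2(FPKM + 1), and 1.24% and 0.428% with the same values unfiltered. With log2(FPKM + 0.1) they were 0.631% and 0.348%. Over input the number of helicase messages past the test was 9 in the reported fit. It was 19 with library size alone (6.12% of all genes higher, 7.72% lower). A mean count of at least 20 also gave 19 (10.6% and 10.9% of all genes). It was 18 with DESeq2's Wald test (11.1% and 8.13%) and 26 with only the 4 libraries compared (20.9% and 22.4%). It was 1 with the length offset (2.93% and 0.731%) and 0 with log2(FPKM + 0.1) (2.81% and 2.5%). With 1 library left out the helicases' median log2 fold change over input was −0.51 to −0.38. For IgG RIP over input, 0 in the reported fit, it was 2 with no filter, 2 with DESeq2's Wald test and 0 to 14 with 1 library left out. Of all genes, 0.627% were higher and 0.371% lower in IgG RIP with no filter, and 2.37% and 1.55% with DESeq2's Wald test. The 14 came from the fit without IgG RIP replicate 1, where the called share of helicases was below that of all genes. In that fit the median log2 fold change of IgG RIP over input was 0.032 for helicases and −0.19 for all genes. The Ddx minus Dhx difference over input was 0.041 with log2(FPKM + 0.1) and −0.43 to 0.036 with 1 library left out. The nuclear minus cytoplasmic difference over input was −0.044 with log2(FPKM + 1), −0.084 with the same values unfiltered and −0.18 to 0.19 with 1 library left out. The causes were not tested. Over the whole table, calls over IgG RIP numbered 1482, against 994 with only the 4 libraries compared, 2428 with no filter, 2892 with DESeq2's Wald test, 149 with log2(FPKM + 0.1), 762 with log2(FPKM + 1) unfiltered and 0 to 7710 with 1 library left out. Calls over input numbered 2293, against 7340 with only the 4 libraries compared, 3479 with DESeq2's Wald test, 1523 with log2(FPKM + 1) unfiltered, 809 with log2(FPKM + 0.1), 661 with the length offset and 117 to 7966 with 1 library left out. The median of all genes was −0.15 over IgG RIP and −0.27 over input with library size alone. The helicases' median stayed below 0 over IgG RIP (−0.55 to −0.20) and over input (−0.74 to −0.24) in the 13 settings that kept all libraries of the comparison. The labels do not say whether replicate numbers pair the libraries. Differences between replicates correlated weakly across groups (0.13, −0.016 and 0.070), which cannot settle it. With a replicate block 13 helicases passed over IgG RIP, all 10 among them, 12 over input and 0 between IgG RIP and input. Over the whole table that fit called 1851 genes over IgG RIP, 2615 over input and 25 between IgG RIP and input. The length offset from genes of at least 10 CPM was chosen after seeing the data. Depth was not varied; Dhx34 and Dhx58 each had 0 counts in IgG RIP replicate 2.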
